A study of Sus scrofa with 15 samples.

Results

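DNA damage response and recombination genes were followed through meiotic maturation in pig oocytes. The set was chosen by name and not by a measured value, but with earlier results of these data known. It was given as 52 gene symbols out of 22516 genes in the deposited gene table. An Ensembl identifier was found by symbol for 49 of them, and 46 of these passed the filter on low counts and were tested. The transcripts of MDC1, DMC1 and XRCC3 were counted but too few for the test. RNF168 and XRCC4 had no identifier in the name table and are not analysed here. The identifier of OGG1 was found only in the study's own list of changed genes, so OGG1 had been selected on these libraries and is given apart from every count of members.

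The study sequenced pools of oocytes from sow ovaries, with 5 libraries in each of 3 groups. Oocytes at the germinal vesicle (GV) stage were taken from fresh follicles without culture and had no polar body. The other groups had been matured in vitro as cumulus oocyte complexes for 44 h by the labels, the upper end of the range in the published methods, after which oocytes with a polar body formed the MII (metaphase II) group and those without one formed the ‘damaged’ group, so that all ‘damaged’ oocytes were defined by the missing polar body and not by a measure of DNA damage. No strain, age or genetic change was given for the animals, and the 5 libraries of a group came from independent collections of oocytes, whose donor animals are not described. No source used here says that libraries with the same replicate number came from the same collection. GV replicate 3 had the lowest total, 6.40 M estimated counts, and was left out. The other 14 libraries held 11.96 to 23.6 M. MII and ‘damaged’ libraries together are called MIX.

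Oocyte markers were high in sum in every library, in CPM (counts scaled to a common library size with TMM factors). The 11 measured of 12 summed to between 10388 and 12268 CPM in GV, 5430 and 7896 in MII, and 6019 and 7981 in ‘damaged’ libraries, while the 8 measured of 12 cumulus and granulosa markers summed to between 4.07 and 13.5 CPM and the 5 measured of 7 theca, stroma and blood markers to between 1.39 and 7.20 CPM. No oocyte marker was at 0 in any group, and among the others AMH was at 0 in the 5 MII libraries. Not every oocyte marker was high after maturation. NOBOX had means of 3.55 CPM in MII and 3.09 CPM in ‘damaged’ libraries, and FIGLA 4.17 and 4.45 CPM. GATM, the highest cumulus and granulosa marker in those groups, had 9.61 and 6.67 CPM.

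Cells answer broken or stalled DNA with sensor kinases (ATM, and ATR with its partner ATRIP) that switch on the checkpoint kinases CHEK1 and CHEK2. Breaks are then repaired by homologous recombination, which copies an intact strand and needs the BRCA proteins, or by end joining, and the Fanconi anaemia pathway removes crosslinks between strands, while mismatch and base excision repair mend wrong or altered bases. An oocyte makes and repairs programmed breaks in the fetal ovary, then stores messenger RNA while it grows, and from germinal vesicle breakdown until the embryonic genome is switched on it works mainly with that store.

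TMM scaling sets libraries to the bulk of shared genes. With it, all 5 end processing members and all 4 BRCA proteins were higher in MIX than in GV at a limma-voom FDR under 0.01. So was 1 of 4 base excision repair members, where 30.3% of all genes were. RAD50 and MRE11 of the end processing group took the other sign when counts were set to library sizes alone. Genes are called upregulated or downregulated where the limma-voom FDR was under 0.01 and the absolute log2 fold change over 2. By that rule CHEK1, BLM, PALB2, MSH3 and LIG4 were upregulated in MIX, 5 of the 46 tested members against 4.27% of all 13230 genes tested, and FANCA and XRCC1 were downregulated, 2 members against 16.7% of all genes. Log2 fold changes here and below are MIX against GV with TMM scaling, ± the SE of the fit over 4 GV and 10 MIX libraries, unless another scale is named.

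At an FDR under 0.01 without the limit on size, 30 members were higher and 6 were lower in MIX, where 30.3% of all genes were higher and 37.2% lower. The 6 lower members were CHEK2, TP63, FANCA, PMS2, PARP1 and XRCC1. GV and MIX libraries did not overlap for 26 higher and 4 lower members, and for 24.3% and 29.4% of all genes in those directions. The levels are means over pools, so that less of a transcript in every oocyte and its loss from some oocytes of a pool cannot be told apart, and for the captured polyA RNA a change in poly(A) tail and a change in transcript number cannot be told apart either.

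These directions depend on the scaling. Over the 13230 genes tested, the median log2 fold change was -0.16 with TMM factors and -1.05 with library sizes alone. On library sizes, 16 members were higher and 15 lower at an FDR under 0.01, where 12.1% and 60.4% of all genes were. FANCA and XRCC1 were still downregulated (28.6% of all genes) and 0 members were upregulated (0.348% of all genes), though CHEK1, BLM, PALB2, MSH3 and LIG4 kept values above 1. Relative to the median gene of each scale, 35 of 46 members lay above it with TMM factors and 35 on library sizes. The median member had a log2 fold change of 0.99 with TMM factors and 0.10 on library sizes, which is 1.15 above the median of all genes with TMM factors. The sign differed between the scalings for 11 members, 22.5% being the share among all genes, and these were ATRIP, RNF8, RAD50, MRE11, FANCC, FANCG, FANCM, FANCD2, XRCC6, PRKDC and APEX1.

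**Figure D1:**
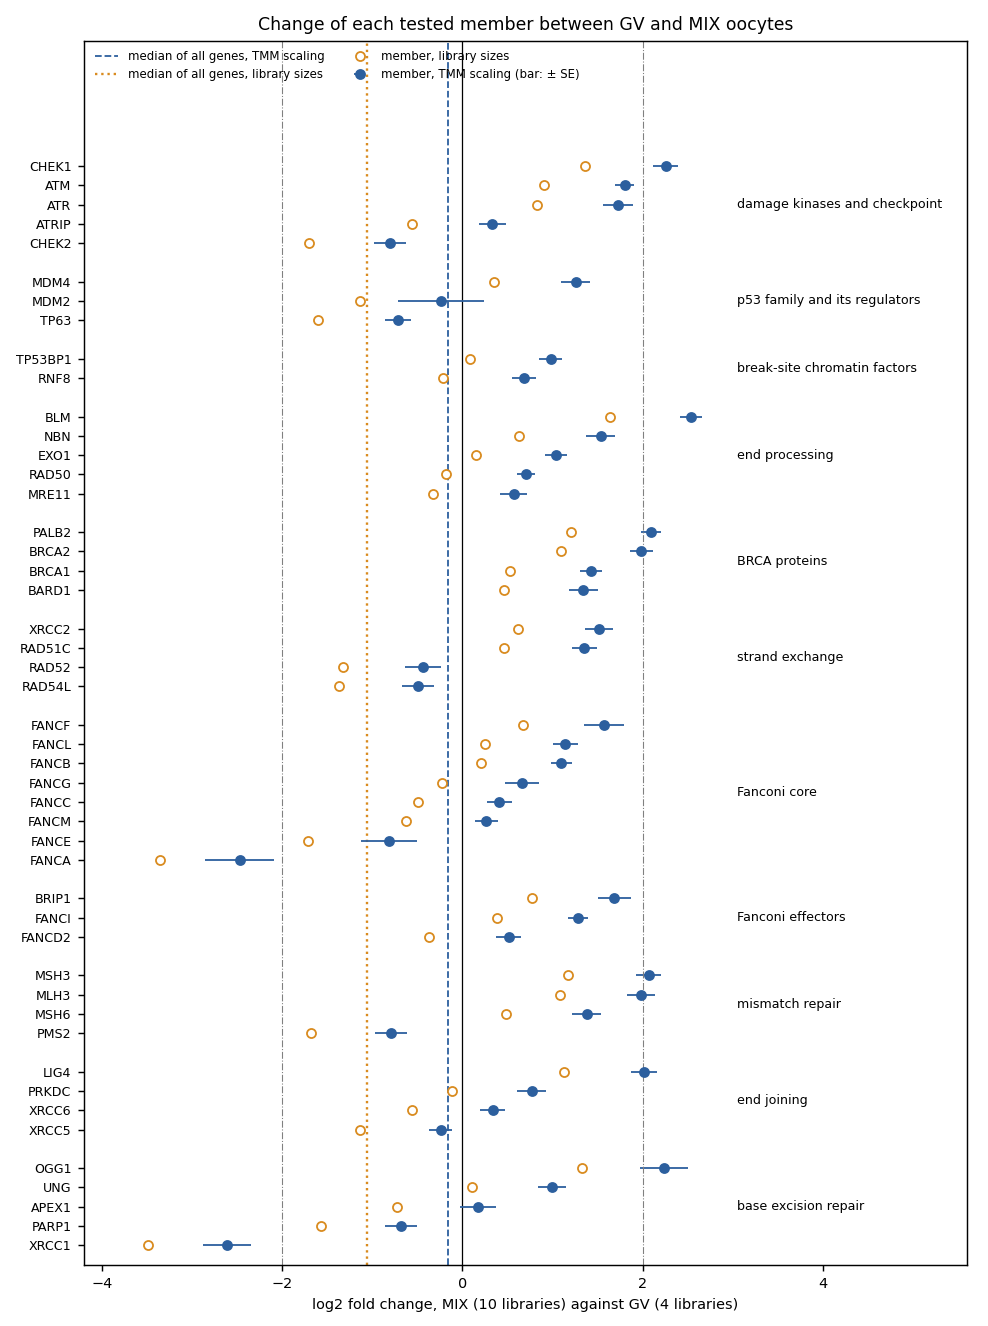
Log2 fold change of the 46 tested members and OGG1 between MIX (10 libraries) and GV (4 libraries), grouped by role, with TMM scaling (filled, bar ± SE) and on library sizes (open); dashed and dotted lines are the medians of all genes, and dash-dot lines mark the limit of 2. BLM is the highest member at 2.54 and XRCC1 the lowest at -2.61, and each open point lies to the left of its filled point, so that 11 members change sign.

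Among the damage kinases, CHEK1 was upregulated. This gene (ENSSSCG00000015215, chr9:52759224-52790878 of Sscrofa11.1) encodes the kinase that restrains CDK1 when replication or repair is incomplete. Its level was 88.3, 68.6, 77.8 and 63.3 CPM in GV replicates 1, 2, 4 and 5 and lay between 270.2 and 449 CPM in MIX, with a median of 366 CPM. Every MIX library was above every GV library, and the log2 fold change was 2.26 ± 0.14 (limma-voom FDR 6.25e-12).

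The sensor kinases were also higher at an FDR under 0.01, with log2 fold changes of 1.80 ± 0.10 for ATM, which answers double-strand breaks, and 1.73 ± 0.17 for ATR, which answers single-stranded DNA. ATM had 50.6 ± 7.07 CPM (SD, n = 4) in GV and 175 ± 7.83 CPM (SD, n = 10) in MIX. ATRIP, which brings ATR to single-stranded DNA, had a log2 fold change of 0.33 ± 0.15 (limma-voom FDR 0.0532) that turned to -0.56 on library sizes. CHEK2, the checkpoint kinase downstream of ATM, was lower by this test on both scalings, at -0.80 ± 0.18 with TMM factors and -1.71 on library sizes, with GV and MIX libraries that overlapped. CHEK2 no longer passed the FDR of 0.01 when all 5 GV libraries were used (limma-voom FDR 0.0332). CHEK1 and CHEK2 thus lay on different sides of 0 on either scale.

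Of the p53 family and its regulators, none was called. MDM4, an inhibitor of p53, had the lowest FDR of this group. Its level was 24.1, 17.2, 14.8 and 12.1 CPM in the GV replicates and 30.2 to 47.5 CPM in MIX, with a median of 40.2 CPM. The groups did not overlap, and the log2 fold change was 1.26 ± 0.16 (limma-voom FDR 3.82e-07), but 0.36 on library sizes (FDR 0.0455).

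TP63, the p53 relative that guards the female germ line and triggers the death of damaged oocytes in resting follicles, was lower on both scalings, at -0.71 ± 0.15 with TMM factors and -1.60 on library sizes. It had 67.5 ± 16.6 CPM (SD, n = 4) in GV and 40.6 ± 5.62 CPM (SD, n = 10) in MIX, and all MIX libraries were below all GV libraries. MDM2, the ubiquitin ligase that removes p53, varied most between libraries. It had 5.30 ± 4.70 CPM (SD, n = 4) in GV and 4.56 ± 4.57 CPM (SD, n = 10) in MIX, and its log2 fold change of -0.23 ± 0.48 was smaller than its SE. The spread came from GV replicate 2 (12.2 CPM) and ‘damaged’ replicates 2 (10.3 CPM) and 5 (15.5 CPM). GV replicate 1 was next at 4.57 CPM.

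Among the factors that mark chromatin around a break, TP53BP1, which holds broken ends and favours end joining, had the lowest FDR. It was at 17.7, 19.7, 19.0 and 21.7 CPM in the GV replicates and between 29.5 and 46.3 CPM in MIX, with a median of 39.1 CPM. No MIX library reached down to the GV range. The log2 fold change was 0.98 ± 0.13 with TMM factors (limma-voom FDR 7.12e-07) and 0.09 on library sizes (FDR 0.58).

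The ubiquitin ligase RNF8, which acts upstream of TP53BP1, was higher with TMM factors at 0.68 ± 0.13 and had -0.21 on library sizes. RNF8 lost its place under an FDR of 0.01 with counts not scaled by transcript length (limma-voom FDR 0.0736). MDC1, the scaffold that recruits RNF8, had 1.97 to 19.5 counts in the 14 libraries and was not tested.

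In end processing, the step that trims broken ends to single strands, BLM had the largest rise of any member, with TMM scaling and on library sizes. BLM (ENSSSCG00000001816, chr7:53317515-53412649) is a helicase that both helps resection and dissolves joined recombination intermediates. It measured 69.2, 49.5, 56.9 and 44.3 CPM in the GV replicates and 267 to 379 CPM in MIX, with a median of 314 CPM. The lowest MIX library was far above the highest GV library. BLM had a log2 fold change of 2.54 ± 0.12 with TMM factors (limma-voom FDR 3.24e-13), 1.64 on library sizes (FDR 1.33e-11). When genes under 10 CPM were left out, which also changes the TMM factors, BLM was the one member still called, at 2.22. CHEK1 (1.94), PALB2 (1.77), MSH3 (1.75) and LIG4 (1.69) were then under the limit of size, and FANCA and XRCC1 were removed by that filter.

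All 5 end processing members were higher at an FDR under 0.01 with TMM factors, but RAD50 (-0.19) and MRE11 (-0.33) were below 0 on library sizes. With TMM factors NBN had 1.53 ± 0.17, RAD50 0.71 ± 0.10 and MRE11 0.57 ± 0.15. These are the parts of the complex that finds break ends, and the order NBN, RAD50, MRE11 was the same on library sizes, where NBN had 0.63. EXO1, the nuclease that extends the resected end, had 1.04 ± 0.12 with TMM factors and 0.15 on library sizes.

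The BRCA group moved as a whole. All 4 members were higher at an FDR under 0.01 with TMM factors, and each stayed above 0 on library sizes. PALB2 (ENSSSCG00000010794, chr3:22586881-22612837), the protein that links BRCA1 to BRCA2, was upregulated. Its GV replicates lay close together at 116, 119.9, 115 and 105 CPM, and MIX libraries lay between 398 and 552 CPM, with a median of 494 CPM. The groups did not overlap, and the log2 fold change was 2.10 ± 0.11 (limma-voom FDR 5.68e-13).

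BRCA2, which loads the recombinase onto single-stranded DNA, was just under the limit of size at 1.99 ± 0.13, with 562 ± 77.6 CPM (SD, n = 4) in GV and 2245 ± 382 CPM (SD, n = 10) in MIX. It passed the limit under DESeq2 at 2.04 and with all 5 GV libraries at 2.11, and at 2.05 with the replicate number as a block. BRCA1 had 1.43 ± 0.12 and BARD1, its partner in the ubiquitin ligase, 1.34 ± 0.16. On library sizes BARD1 had 0.46 and was no longer under an FDR of 0.01 (limma-voom FDR 0.0294).

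Strand exchange members were divided. XRCC2, a member of the recombinase paralogue family, had the lowest FDR and measured 80.7, 54.1, 91.5 and 53.2 CPM in the GV replicates and 132 to 221 CPM in MIX, with a median of 202 CPM. The groups did not overlap, and the log2 fold change was 1.52 ± 0.15 (limma-voom FDR 1.68e-08) and 0.62 on library sizes. RAD51C, another paralogue, had 1.35 ± 0.14.

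RAD52, an annealing protein, and RAD54L, a translocase that works on paired strands, had negative values of -0.44 ± 0.20 (limma-voom FDR 0.0551) and -0.49 ± 0.18 (FDR 0.0158), neither of which passed with TMM factors. On library sizes both passed, with -1.33 and -1.37. DMC1, the recombinase of meiosis alone, had 0 to 2.07 counts in the 14 libraries, and XRCC3, a further paralogue, had 0 to 21.0 counts. Neither was tested.

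**Figure D2:**
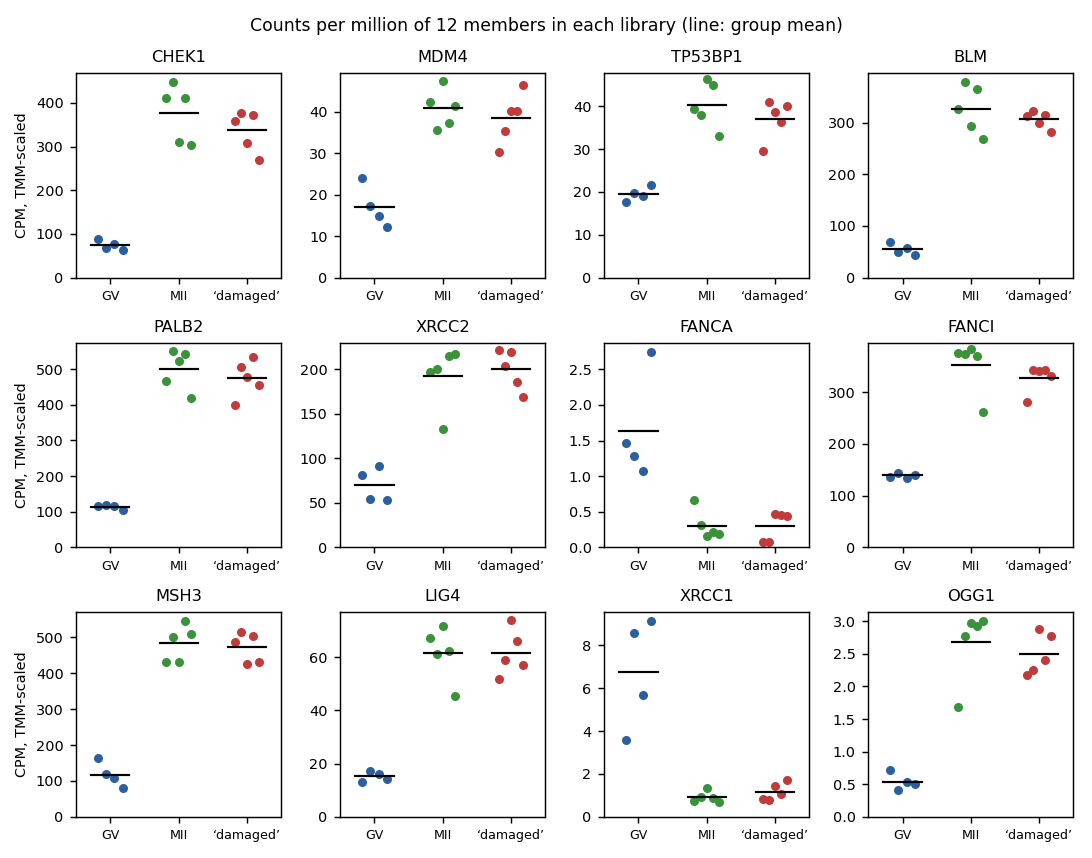
TMM-scaled CPM (linear axes from 0) of the 12 members whose libraries are given in the text, with 1 point for each of 4 GV, 5 MII and 5 ‘damaged’ libraries and a line at the group mean. The MII and ‘damaged’ points overlap in every panel, and both lie above all GV points for 10 members and below them for FANCA and XRCC1.

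The Fanconi core complex attaches ubiquitin to FANCD2 and FANCI at crosslinks, and its 8 members did not move as a block. FANCA (ENSSSCG00000024687, chr6:253207-300159), a large core subunit, was downregulated from an already low level. It had 1.47, 1.28, 1.07 and 2.74 CPM in the GV replicates and 0.0734 to 0.663 CPM in MIX, with a median of 0.259 CPM. No MIX library reached the GV range, and the log2 fold change was -2.47 ± 0.38 (limma-voom FDR 5.78e-06), resting on 0.966 to 66.0 counts in a library.

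FANCL, the ubiquitin ligase of the complex, went the other way with TMM factors at 1.14 ± 0.14 but had 0.25 on library sizes (limma-voom FDR 0.12). FANCF, an adaptor, had 1.57 ± 0.22 and FANCB 1.10 ± 0.12 with TMM factors, and FANCG had 0.67 ± 0.19 and turned to -0.23 on library sizes. Without GV replicate 5 the value of FANCG was 0.53 and no longer passed. FANCC at 0.41 ± 0.14 (limma-voom FDR 0.0132), FANCM, the translocase, at 0.27 ± 0.13 (FDR 0.0587) and FANCE at -0.82 ± 0.31 (FDR 0.0219) did not pass. On library sizes no core member was higher at an FDR under 0.01 and 4 of 8 were lower. Of all genes, 12.1% were higher and 60.4% lower there.

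The effectors of the pathway were higher, with FANCD2 as the exception on library sizes at -0.38. FANCI, the partner of FANCD2 on DNA, had the lowest FDR. It measured 137, 145, 134 and 141 CPM in the GV replicates and between 262 and 384 CPM in MIX, with a median of 343 CPM. The groups did not overlap, and the log2 fold change was 1.28 ± 0.11 (limma-voom FDR 1.53e-09). BRIP1, the helicase bound to BRCA1, had 1.69 ± 0.18 and FANCD2 0.52 ± 0.14 with TMM factors.

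In mismatch repair, MSH3 (ENSSSCG00000014126, chr2:89255647-89456102) was upregulated. It recognises larger loops of unpaired bases. Its GV replicates measured 163, 120.3, 107 and 79.2 CPM, and MIX libraries measured 426 to 546 CPM, with a median of 493 CPM. The GV libraries spread more widely than for the other upregulated members, yet none reached the MIX range. The log2 fold change was 2.07 ± 0.14 (limma-voom FDR 2.78e-11) and fell to 1.90 without GV replicate 5, under the limit of size.

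MLH3, which acts in meiotic crossovers, had 1.98 ± 0.15, and MSH6, which recognises single mismatches, had 1.38 ± 0.16. PMS2, the endonuclease partner in somatic mismatch repair, was lower at -0.79 ± 0.18, with MIX libraries all below the GV libraries, at 2.75 ± 0.474 CPM (SD, n = 10) against 4.78 ± 0.906 CPM (SD, n = 4). The 3 higher members stayed higher and PMS2 stayed lower at an FDR under 0.01 on library sizes.

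LIG4 (ENSSSCG00000009540, chr11:75537027-75547711), the ligase that seals ends in end joining, was upregulated by a narrow margin. It had 13.0, 17.4, 16.1 and 14.2 CPM in the GV replicates and 45.5 to 73.8 CPM in MIX, with a median of 61.5 CPM. The groups did not overlap. The log2 fold change was 2.01 ± 0.14 (limma-voom FDR 6.42e-11), and it ranged from 1.96 to 2.08 as each library was left out, with a value under 2 without GV replicate 1, GV replicate 5, MII replicate 1, MII replicate 3 or ‘damaged’ replicate 3. With the replicate number as a block it was 1.95.

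The proteins that bind the ends before LIG4 acts were not raised alike. PRKDC, the catalytic kinase, had 0.77 ± 0.16 and passed the FDR of 0.01, but had -0.12 on library sizes. XRCC6 and XRCC5, the subunits of the Ku ring, had 0.34 ± 0.14 (limma-voom FDR 0.0345) and -0.24 ± 0.13 (FDR 0.0946) and did not pass. On library sizes XRCC6 had -0.55 and XRCC5 -1.14, and both passed.

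Base excision repair had the largest fall of the set. XRCC1 (ENSSSCG00000003055, chr6:50403691-50425730), the scaffold that gathers the repair enzymes at a nick, had 3.58, 8.58, 5.69 and 9.12 CPM in the GV replicates and 0.699 to 1.70 CPM in MIX, with a median of 0.918 CPM. All MIX libraries were below all GV libraries. The log2 fold change was -2.61 ± 0.27 (limma-voom FDR 1.77e-08) with TMM factors and -3.49 on library sizes.

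PARP1, the sensor of single-strand breaks that recruits XRCC1, was also lower, at -0.68 ± 0.18 (limma-voom FDR 0.0021) and -1.57 on library sizes. Without GV replicate 5 its value was -0.50 and no longer passed (FDR 0.0195). UNG, which removes uracil, was higher with TMM factors at 0.99 ± 0.16 and had 0.11 on library sizes (limma-voom FDR 0.599), and APEX1, which cuts at the emptied site, had 0.17 ± 0.20.

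OGG1, the glycosylase that removes oxidised guanine, had 0.714, 0.416, 0.528 and 0.505 CPM in the GV replicates and 1.68 to 3.01 CPM in MIX, with a median of 2.78 CPM. The groups did not overlap, and the log2 fold change was 2.24 ± 0.27. Its identifier came from a list of genes called on these libraries, so the size of this change is not independent evidence.

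Levels per transcript length, in TPM (transcripts scaled by length and by the library's sum), showed which of these genes the oocyte held most of. FANCL was far above the rest. Its median was 973 TPM in GV and 1141 TPM in MIX, and its lowest GV library, at 831 TPM, was above every library of any other member. Only 145 genes had a higher median TPM in GV oocytes, and 104 in MIX.

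BRCA2 at 122 TPM, XRCC6 at 113 TPM and RAD51C at 101 TPM followed in GV, and in that order the ranges of neighbours over the 4 libraries overlapped. In MIX the order after FANCL was BRCA2 at 255 TPM, CHEK1 at 193 TPM and PALB2 at 157 TPM, with overlapping ranges between neighbours. BLM moved from rank 23 of the 50 measured members (OGG1 included) in GV to rank 8 in MIX. XRCC5 moved from rank 5 to rank 21, TP63 from 15 to 30 and CHEK2 from 22 to 34.

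At the low end, FANCA, XRCC3, MDC1 and DMC1 each had a median under 1 TPM in GV. DMC1 had 0.0314 TPM in GV and 0 in MIX. Of the 46 tested members, 45 had a median over 1 TPM in GV and 42 in MIX.

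**Figure D3:**
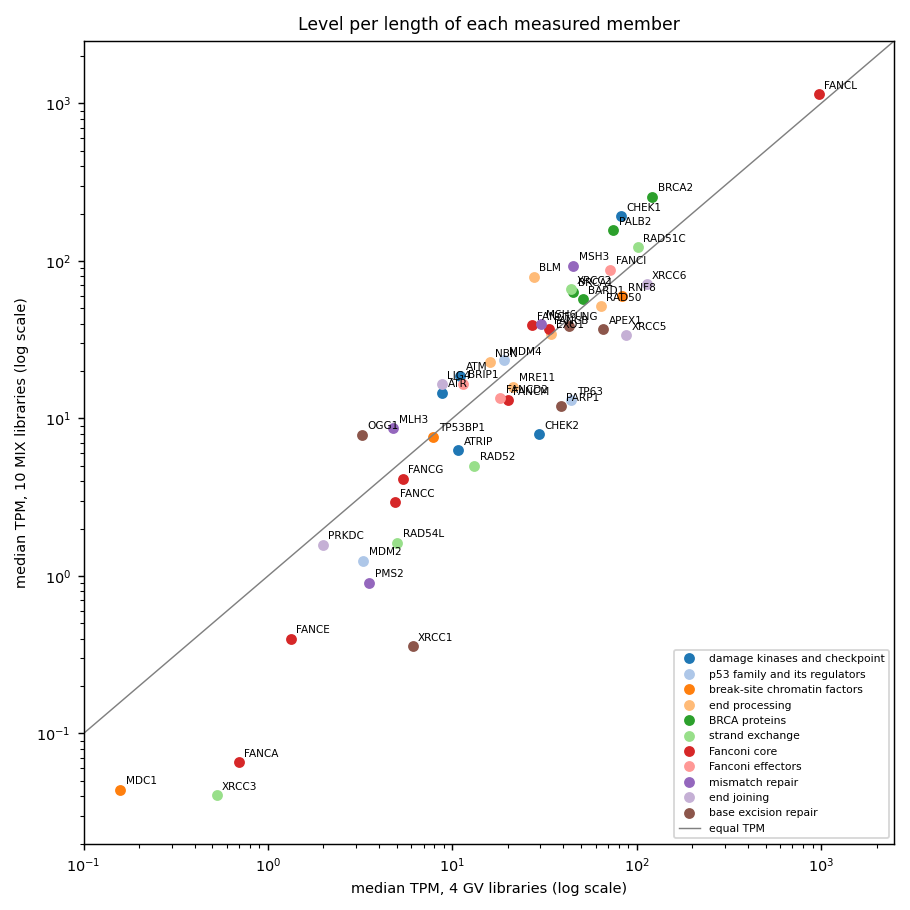
Median TPM of each measured member in the 4 GV libraries (x axis) and 10 MIX libraries (y axis), both on log scales, coloured by role, with a line at equal TPM; DMC1, with a median of 0 in MIX, is not drawn. FANCL sits alone at the top, at 973 and 1141 TPM, BLM, CHEK1 and PALB2 lie above the line, and XRCC1 lies furthest below it among members over 1 TPM in GV.

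The groups with and without a polar body were then set against GV separately. Both comparisons use the same GV libraries. In MII 7 members were upregulated and 2 downregulated, against 4.50% and 17.1% of all genes, and in ‘damaged’ oocytes 5 and 2, against 4.08% and 16.4%. BRCA2 and MLH3 were the members upregulated in MII by limma-voom and not in ‘damaged’ oocytes. BRCA2 had log2 fold changes of 2.05 in MII and 1.92 in ‘damaged’ oocytes, and MLH3 had 2.10 and 1.87.

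These differences did not pass a direct test of MII against ‘damaged’. The log2 difference was 0.13 for BRCA2 (95% interval -0.16 to 0.42) and 0.22 for MLH3 (95% interval -0.07 to 0.52). CHEK1 had 0.15 (95% interval -0.14 to 0.45), BLM 0.08 (95% interval -0.19 to 0.35) and TP63 -0.11 (95% interval -0.46 to 0.24).

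Over all 46 tested members no call was made between MII and ‘damaged’ oocytes by limma-voom, DESeq2 or edgeR, and the share called among all 13230 genes was 0 as well. The unadjusted limma-voom p was under 0.05 for 0 members and for 1.47% of all genes, that of DESeq2 for 0 members, and that of edgeR for 1 member, MDM2, named here after its value was seen. MDM2 was at 10.3 and 15.5 CPM in ‘damaged’ replicates 2 and 5. In the other ‘damaged’ libraries it reached 2.54 CPM at most, and in MII libraries 3.01 CPM. The point values ran from -0.74 (MDM2) to 0.25 (PMS2), and 30 of 46 were above 0. For 43 members the 95% interval lay within 1 log2 unit of 0 on either side, the median distance from the value to a bound being 0.34. MDM2, FANCA and XRCC1 had wider intervals, of -1.93 to 0.46, -1.21 to 1.31 and -1.18 to 0.52, so for them a difference of more than 2-fold is not excluded by these libraries.

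**Figure D4:**
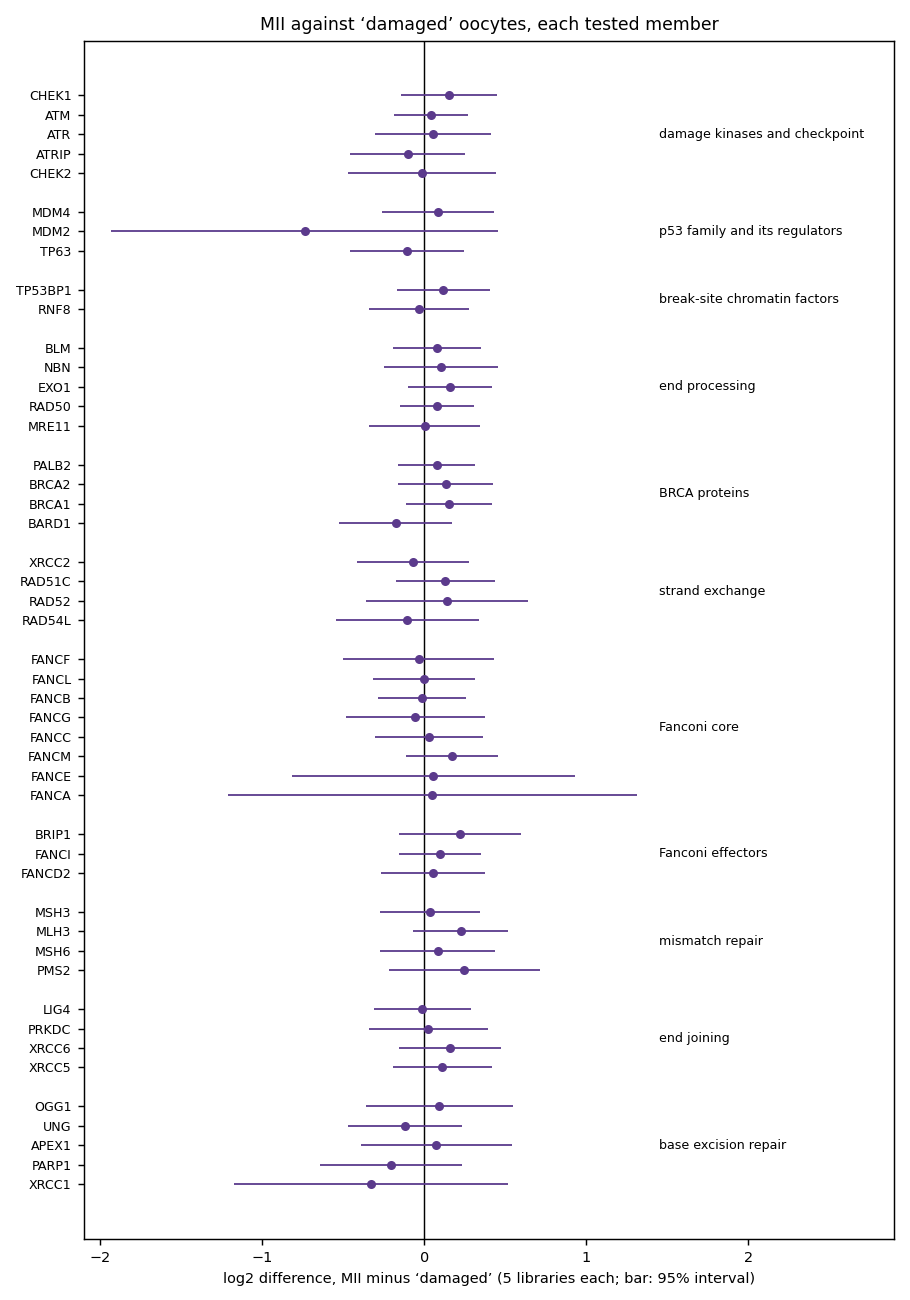
Log2 difference between MII and ‘damaged’ oocytes (5 libraries each) for the 46 tested members and OGG1, grouped by role, with the 95% interval of the limma-voom fit as a bar. Each interval includes 0, and the intervals of MDM2, FANCA and XRCC1 are the ones that reach past 1 log2 unit.

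A gene can keep its total level and change which of its isoforms is present. The isoform fraction is the share of a gene's TPM that 1 annotated transcript holds, and an isoform was called where the FDR of the DEXSeq model was under 0.01 and the mean fraction differed by more than 0.1 between MIX and GV. Of the 46 members, 32 had at least 2 isoforms that passed the filters. An isoform was called in 22 of these 32 genes, against 49.7% of all 4675 genes tested. Of the 22, 20 had no call at gene level, but only 4 of the 32 had one. Among all 13230 genes tested at gene level, 4.27% were upregulated and 16.7% downregulated. The share without a gene-level call among all genes with a called isoform was not counted, so the 20 are not shown to be particular to the members. PALB2 and LIG4 had both kinds of call. With a limit of 0.2 there were 19 members, against 36.6% of all genes.

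ATRIP had the largest difference. Its isoform of 2576 bases (ENSSSCT00000012436.5) held a share of 0.967 in GV and 0.0479 in MIX, and the one of 2489 bases (ENSSSCT00000068536.2) held 0.0330 and 0.952. The longer one was listed at a share of 1 in GV replicates 1, 2 and 4 and at 0.888 in replicate 5. In MIX it was listed at 0 in 7 libraries and reached 0.189 at most. Its estimated count was the same, 27.3, in MII replicate 1 and in ‘damaged’ replicates 4 and 5. The total of ATRIP did not pass the gene test, so the isoform changed (DEXSeq model FDR 9.90e-07) without a call for the gene.

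RNF8 showed an isoform that was listed at 0 in all 4 GV libraries. This transcript of 1551 bases (ENSSSCT00000075067.1) held between 0.705 and 0.885 of the gene in the MIX libraries, with a mean count of 921. The other 3 called isoforms of RNF8, of 1945, 1933 and 3073 bases, shared the gene in GV at 0.422, 0.331 and 0.239 and fell to 0.122, 0.0138 and 0.0407.

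In MLH3 the isoform of 4414 bases (ENSSSCT00000002644.5) went from 0.0119 in GV to 0.746 in MIX and the one of 4486 bases (ENSSSCT00000050288.3) from 0.988 to 0.254. MII replicates 3 and 4 differed from the other MIX libraries, with shares of 0.375 and 0.450 for the shorter isoform against 0.712 or more. All of them were still above the GV libraries, in which it reached 0.0597 at most. Estimated counts of the longer isoform came in steps. They were 59.5 in MII replicates 1 and 5 and in ‘damaged’ replicates 3, 4 and 5. MII replicate 2 and ‘damaged’ replicate 2 had 119, and MII replicates 3 and 4 had 357. How many reads tell these isoforms apart was not examined, so few reads may decide the shares.

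The Ku subunit XRCC5, whose total did not pass the gene test with TMM factors, exchanged an isoform of 2484 bases (ENSSSCT00000017615.5) for one of 2583 bases (ENSSSCT00000054177.3). The longer one held 0.135, 0.0880, 0.101 and 0.0998 in the GV replicates and 0.712 to 0.928 in MIX. The GV and MIX libraries were widely separated, and the mean counts behind the longer isoform were 204 in GV and 930 in MIX.

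LIG4 gained a shorter isoform together with its rise. The transcript of 3938 bases (ENSSSCT00000101994.1) was listed at 0 in every GV library and held 0.588 to 0.745 in MIX, while the one of 4810 bases (ENSSSCT00000094608.1) fell from 0.844 to 0.123. Another isoform of 5056 bases had 0.156 in GV and 0.214 in MIX and did not pass.

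TP63 lost the isoform of 4306 bases (ENSSSCT00000080638.2), which held 0.384, 0.846, 0.663 and 0.841 in the GV replicates and at most 0.108 in MIX. Its isoform of 2866 bases (ENSSSCT00000081682.2) went from 0.154 to 0.600. The sources used here do not say which of these encodes the full activating form of the protein.

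The other 16 members with a called isoform had largest differences between 0.125 (FANCB) and 0.580 (NBN) in size. The break-end complex was among them as a whole: NBN (0.580), RAD50 (0.536) and MRE11 (0.535) each had 1 isoform whose share rose by that much. BRCA1 gained 0.421 in its transcript of 5777 bases, and CHEK2 gained 0.389 in one of 1931 bases, with GV and MIX libraries that overlapped. The leading isoform differed between GV and MIX in 14 of the 32 members, against 29.7% of all genes. In 10 of these 14 the one that led in MIX was shorter. The share of shorter ones among all genes was not counted, so this is not shown to be particular to the members. For ATR and BARD1 the transcripts that led in MIX were annotated at only 503 and 548 bases, while those that led in GV had 8934 and 4906. Shares are of TPM, which divides by length, so a short transcript can lead with fewer reads than a long one. The short BARD1 transcript had a mean estimated count of 192 in MIX.

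Of the 107 isoforms tested in members 53 were called, against 36.6% of all 12462 isoforms. The MII and ‘damaged’ ranges overlapped for each of the 53. GV and MIX ranges did not overlap for 44 of them, where 72.9% of all called isoforms had ranges that did not. The reads were single and 75 bases long, and isoforms of a gene share most of their sequence, so the shares rest on the reads that tell them apart.

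**Figure D5:**
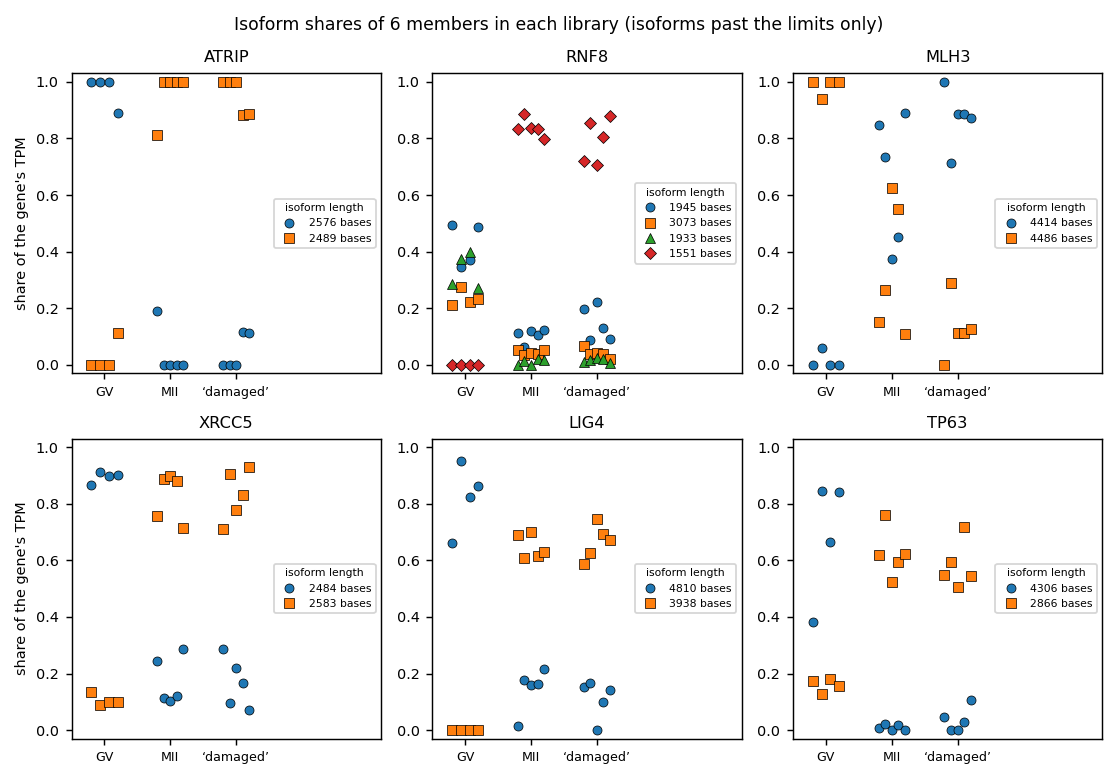
Share of the gene's TPM held by the called isoforms of ATRIP, RNF8, MLH3, XRCC5, LIG4 and TP63 in each of 4 GV, 5 MII and 5 ‘damaged’ libraries, with the isoform length in bases in the key. In each panel the isoform that leads on average in GV drops and another takes its place in MII and ‘damaged’ libraries alike; MII replicates 3 and 4 of MLH3, at 0.375 and 0.450, lie between.

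The wider pathway was read from 151 further repair and meiotic recombination genes, of which 132 were tested. With TMM factors 16 were upregulated and 14 downregulated in MIX, where 4.27% and 16.7% of all genes were. At an FDR under 0.01, 60 were higher and 41 lower, where 30.3% and 37.2% of all genes were. On library sizes 0 were upregulated and 32 downregulated, where 0.348% and 28.6% of all genes were. There 34 were higher and 61 lower at that FDR, where 12.1% and 60.4% of all genes were. Their median log2 fold change was 0.50 with TMM factors and -0.39 on library sizes.

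The largest rises of the called ones were in RMI1 at 2.89 ± 0.15, RAD1 at 2.87 ± 0.17 and MND1 at 2.80 ± 0.15. RMI1 is a partner of BLM in dissolving joined strands, RAD1 is part of the clamp that activates ATR, and MND1 helps strand exchange in meiosis. MND1 had 51.2 ± 15.7 CPM (SD, n = 4) in GV and 345 ± 39.0 CPM (SD, n = 10) in MIX. These genes kept values of 1.99, 1.97 and 1.90 on library sizes.

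The largest falls were in FAAP100 at -5.19 ± 0.45, POLL at -4.65 ± 0.52 and TOP3A at -4.61 ± 0.49. FAAP100 belongs to the Fanconi core with FANCB and FANCL, POLL fills gaps in end joining, and TOP3A is the topoisomerase that acts with BLM and RMI1. TOP3A had 5.23 ± 2.59 CPM (SD, n = 4) in GV and 0.234 ± 0.233 CPM (SD, n = 10) in MIX, with some MIX libraries at 0 for each of the 3 genes, and its groups did not overlap. BLM and RMI1 were thus called higher and their partner TOP3A lower. In the Fanconi core FANCL was higher with TMM factors (0.25 on library sizes) and FANCA and FAAP100 were downregulated.

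By list, translesion synthesis had the highest median at 1.36 (8 of 12 tested genes higher at an FDR under 0.01, 0 lower), and the checkpoint clamp and mediators had 0.83 (7 of 10 higher, 1 lower). Meiotic recombination had 0.67 (9 of 23 higher, 8 lower), excision repair 0.57 (15 of 33 higher, 9 lower) and the end joining and mismatch partners 0.49 (7 of 14 higher, 6 lower). The Fanconi partners had 0.12 (3 of 9 higher, 4 lower), and so had the other homologous recombination genes (11 of 31 higher, 13 lower). These counts are with TMM factors, where 30.3% of all genes were higher and 37.2% lower. On library sizes the median was above 0 for translesion synthesis alone, at 0.47 (7 higher, 3 lower). There the other homologous recombination genes had 5 higher and 19 lower, excision repair 9 and 15, meiotic recombination 4 and 10, the end joining and mismatch partners 3 and 7, the Fanconi partners 2 and 5, and the checkpoint list 4 and 2. Of all genes, 12.1% were higher and 60.4% lower at that FDR on library sizes.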

How the data were processed

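RNA from pooled pig oocytes was amplified as cDNA and sequenced as single reads of 75 bases. Per the labels the submitters' processing notes name kallisto 0.43, limma and Sscrofa11.1. The authors deposited, for each library, Kallisto estimated counts and TPM per transcript, and a gene table of estimated counts made from TPM scaled by transcript length and library size. Of the columns of gene estimates, 8 were used and 7 were not used, because column name and library total did not agree, so gene counts of all libraries were rebuilt from the transcript files by matching transcripts to genes in the 8 columns. Totals were 6.40 to 23.6 M per library, and among the members tested low counts limit FANCA and FANCE, with under 10 in some libraries, as well as XRCC1 and OGG1.

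Genes kept by filterByExpr were fitted with limma-voom (limma 3.58.1, edgeR 4.0.16, R 4.3.3) with TMM factors, which the study does not name, and p-values were adjusted by Benjamini-Hochberg across the tested genes. Joined MII and ‘damaged’ libraries were set against 4 GV libraries, and 1 fit with 3 groups gave the other comparisons. Isoform shares were tested with the DEXSeq model fitted in DESeq2 1.42.0 on rounded estimated counts, for genes over 1 TPM with more than 1 isoform over a fraction of 0.05. Tested on simulated data, the gene fit of MIX against GV recovered 190 of 200 genes changed by 3 log2 units among 12910 genes. The isoform fit recovered 175 of 175 isoforms changed 8-fold whose share passed the limit, and made 5 calls in genes without change. The simulated counts had a fixed spread, changes larger than the limits and no shift of the bulk of genes. They therefore do not test the scaling or changes near the limits. Positions are RefSeq's for Sscrofa11.1, by symbol.

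Values per library are given for each called member and, in a role without one, for the member of lowest FDR. At most 6 members with a called isoform are described in full, and of the other pathway genes the 3 called genes of largest rise and of largest fall. The members and lists were chosen with earlier results of these data known. Alternatives were library sizes, DESeq2, edgeR, other filters, all GV libraries, unscaled counts, a replicate term and leaving out each library. For isoforms they were limma diffSplice, all GV libraries, and diffSplice with a replicate term or with each library left out. Those for counts at an FDR under 0.01 were added after the data had been seen. Replicate libraries all differed by more than sampling noise.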

Additional observations from a re-analysis of the deposited data

Results flagged for a closer look

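Of 54 groups of 4 or 5 libraries examined for members given per library, 8 held a library far from the others by Dixon's criterion. Chance alone gives that in about 1 group in 20 where values are normally distributed. Isoform shares tied at 0 or 1 are not, and there any library off the tied value is flagged, as for ATRIP and MLH3 below. XRCC2 was at 132 CPM in MII replicate 3, where the other MII libraries lay between 197 and 216 CPM. FANCI was at 262 CPM in MII replicate 5 against 370.4 to 384 CPM, and at 281 CPM in ‘damaged’ replicate 1 against 331 to 343 CPM. OGG1 was at 1.68 CPM in MII replicate 1 against 2.78 to 3.01 CPM. All of these remained above every GV library.

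The ATRIP isoform ENSSSCT00000068536.2 had a share of 0.112 in GV replicate 5 and was listed at 0 in the other GV libraries, and it had 0.811 in MII replicate 1 where the other MII libraries had 1. The MLH3 isoform ENSSSCT00000002644.5 had 0.0597 in GV replicate 2 and 0 in the others. The LIG4 isoform ENSSSCT00000094608.1 had 0.0155 in MII replicate 1 against 0.159 to 0.216 in the other MII libraries.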

How the results depend on the processing

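Scaling and the filter on low counts changed the members called, and the test did not change them by more than 1.5 times. On library sizes 2 members were called in MIX, MII and ‘damaged’ oocytes each, in place of 7, 9 and 7. With genes under 10 CPM left out, 1, 2 and 1 were called. Members higher at an FDR under 0.01 went from 30 to 16 on library sizes and those lower from 6 to 15. Leaving out each library gave 6 to 9, 7 to 10 and 5 to 7 calls in those comparisons, 29 to 31 members higher and 5 to 8 lower. Without GV replicate 1, XRCC3 passed the filter and was called lower. DESeq2 and the fit without a filter each gave 9 calls in MIX, adding BRCA2 and MLH3. MII against ‘damaged’ gave 0 under every setting run. Members with a called isoform numbered 22 with the DEXSeq model, and 19 to 23 in the alternatives. The isoform fits with a library left out or a replicate block used limma diffSplice, so the test changed in them too.

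Values that reversed on library sizes were those of ATRIP (-0.56), RNF8 (-0.21), RAD50 (-0.19), MRE11 (-0.33), FANCC (-0.49), FANCG (-0.23), FANCM (-0.63), FANCD2 (-0.38), XRCC6 (-0.55), PRKDC (-0.12) and APEX1 (-0.73). FANCM (-0.054) and APEX1 (-0.15) reversed with the filter of 10 CPM, and MDM2 with unscaled counts (0.15) and when GV replicate 2 was left out (0.28, against a lowest value of -0.53). The cause was not tested. LIG4 fell under the limit of size with all 5 GV libraries, with unscaled counts and with the replicate block, its largest value being 2.08 as libraries were left out.

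With the replicate number as a block 7 members were called in MIX, 8 in MII and 6 in ‘damaged’ oocytes, and 31 were higher and 8 lower at an FDR under 0.01. For isoforms the block was fitted with limma diffSplice and not the DEXSeq model, and 21 members had a called isoform there. Same-numbered libraries had correlations of -0.11 to 0.36 in their deviations from the group means, and other pairs -0.32 to 0.33. The oocytes of every group came from independent collections, but no source used here ties a number to a collection, so the numbers were read as shared numbers only. With the block LIG4 was no longer called and BRCA2 was, and XRCC6 (0.44), RAD52 (-0.57) and FANCE (-0.93) passed the FDR of 0.01.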
